A study of Mus musculus with 6 samples.

Results

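The immediate early genes described here are 10 of the 19465 genes that were counted in coronal sections of the mouse brain by Visium spatial transcriptomics. They were chosen by symbol and not by a rule on their values, though with earlier results of these data known. They are Fos, Fosb, Junb, Egr1, Egr2, Npas4, Nr4a1, Arc, Ier2 and Dusp1. All sections came from untreated male C57BL/6J mice kept under a 12-hour light/dark cycle, with 2 sections at postnatal day 21 (P21), 2 from adult mice of 12 to 15 weeks and 2 from aged mice of 28 months. P21 mice were bred in house, adult mice were bought from the Jackson Laboratory at 12 weeks and aged mice came from the NIA, the US National Institute on Aging. Mice were killed with CO2 followed by cervical dislocation, and the brains were fixed in formalin and embedded in paraffin. The hour of death is not given in the sources used here. By the study's methods, P21 and adult sections lay directly on version 1 slides, whereas aged sections were stained on plain glass, hybridized with the probes of version 2 and transferred with the CytAssist instrument, though the labels name the version 1 kit for all samples. Between aged and adult mice, age therefore cannot be told apart from the probe set, the slide and the version of Space Ranger (2.0.0 or 3.1.1 in the file headers). The source of the mice differs between all 3 ages by the labels, so it cannot be told apart from age in either comparison, whereas the study's methods name the Jackson Laboratory for all mice.

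Immediate early genes are transcribed within minutes of synaptic activity, growth factors or stress, without the need for newly made protein. Calcium and kinase signals reach them through factors that already sit in the nucleus, above all CREB, which binds the cyclic AMP response element (CRE), and serum response factor, which binds the CArG box. In the brain their transcripts are short lived and are widely read as a trace of recent neuronal activity, and most encode transcription factors that turn on slower genes, while others act at synapses or shut the signal off.

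Of the 10 genes, 7 have a promoter window in the RefSeq table (GRCm38.p6), and Arc, Egr1 and Ier2 do not. The 4 windows printed here were chosen because their genes show the range of responses described below and because none of their bases falls in an annotated exon. Each gives the 250 bases before a transcription start, 5′ to 3′ on the strand of the gene. Capitals mark the short CRE (CGTCA or its complement TGACG) and the CArG box. The Fos window lies at chr12:85473640-85473889 on the plus strand and the Egr2 window at chr10:67537619-67537868 on the plus strand. The Nr4a1 window lies at chr15:101266596-101266845 on the plus strand and the Junb window at chr8:84978749-84978998 on the minus strand.
Fos: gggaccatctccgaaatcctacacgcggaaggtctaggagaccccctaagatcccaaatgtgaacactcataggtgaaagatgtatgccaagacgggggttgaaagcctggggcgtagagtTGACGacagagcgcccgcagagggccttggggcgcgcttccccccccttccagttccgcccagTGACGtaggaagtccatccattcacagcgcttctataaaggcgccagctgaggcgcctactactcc
Egr2: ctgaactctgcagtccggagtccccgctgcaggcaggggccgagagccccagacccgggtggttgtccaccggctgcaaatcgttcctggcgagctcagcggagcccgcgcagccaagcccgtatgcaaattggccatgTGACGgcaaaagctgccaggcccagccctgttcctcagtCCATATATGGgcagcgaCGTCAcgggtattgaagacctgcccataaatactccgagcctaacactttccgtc
Nr4a1: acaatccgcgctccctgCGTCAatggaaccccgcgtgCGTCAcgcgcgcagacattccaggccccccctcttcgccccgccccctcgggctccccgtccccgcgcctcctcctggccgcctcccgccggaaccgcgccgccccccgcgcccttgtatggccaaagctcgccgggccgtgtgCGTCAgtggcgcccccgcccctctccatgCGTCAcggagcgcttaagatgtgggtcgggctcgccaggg
Junb: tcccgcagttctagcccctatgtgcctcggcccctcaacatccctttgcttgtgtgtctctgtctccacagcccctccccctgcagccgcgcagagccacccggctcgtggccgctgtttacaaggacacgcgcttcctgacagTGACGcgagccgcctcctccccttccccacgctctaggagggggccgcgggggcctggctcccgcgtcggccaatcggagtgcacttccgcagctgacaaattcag

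The short CRE was found on either strand in at least 1 window of 7 of 7 genes, against 19.8% of the 27025 genes with a window and 17.8% of 32851 windows. The full CRE (TGACGTCA), which contains the short form, was found for Dusp1 alone among the 7, against 1.77% of all genes. The CArG box was found for Egr2 alone among the 7, against 1.62% of all genes. These are letter matches in one window per start site, which reaches 250 bases before the start, and say nothing of binding. Matches farther upstream were not looked for.

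Depth ranged from 12074.5 to 25535 median UMIs (unique molecular identifiers, the counted molecules) per spot, and 20336 spots were kept. A spot is a small region that can hold several cells, and a lower count in it can mean fewer cells of a type or less RNA per cell, which cannot be told apart. Spots were clustered without 51 activity and heat shock genes, the 10 described genes among them. In all, 18739 spots fell in 12 zones, which were named from marker genes except for the middle cortical zone. These are the upper cortical layers, a middle cortical zone led by Tshz2, Tox, Adcyap1 and Fezf2, the deep cortical layers, the piriform and amygdalar cortex, the hippocampal fields CA1, CA3 and dentate gyrus (DG), the hippocampal matrix around them, the thalamus, the hypothalamus, the striatum and the fiber tracts. The middle zone holds 1603 cortical spots that no marker panel named, with scores of -0.13 for the deep and -0.18 for the upper panel. Its name is a label for the cortical spots left over, and Fezf2, among its leading genes, belongs to the deep panel. Of the spots kept as fiber tracts, 813 formed a subcluster that no panel named. CA1, CA3 and DG were small, with 180, 216 and 237 spots over the 6 sections. Levels are given in CPM, the UMIs of a gene after the total of the same section or zone was scaled to 1000000, always in the order section 1, section 2. They are not compared between genes, since each gene has its own probes. A gene was called higher or lower in a zone where it differed by more than 1.5 times with an adjusted p under 0.05 in edgeR's quasi-likelihood test with Benjamini-Hochberg adjustment over all genes of that zone and comparison. The p-values of these tests by zone rest on the spread between 2 sections per age, which edgeR draws toward that of the other genes. A gene that varies more between sections than most genes can thus get too small a p. In the later fit of all zones, p-values rest likewise on how differences between zones vary between the sections of an age. There the zones of a section count as independent, though they share an animal.

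Over the whole section all 10 genes were at a higher level in both aged sections than in either adult section, a pattern that 39.9% of all genes shared. Egr1 showed the widest gap, with 49.1 and 58.0 CPM at P21, 142 and 92.4 in adult mice and 699 and 651 in aged mice. Arc stood at 51.2 and 46.8 CPM at P21, 129 and 71.3 in adult mice and 358 and 295 in aged mice. Fos stood at 6.29 and 6.69 CPM at P21, 13.4 and 5.31 in adult mice and 41.0 and 38.8 in aged mice, so the aged sections lay far above the rest while the P21 sections lay between the adult sections. Egr2, with the fewest UMIs, stood at 1.56 and 1.93 CPM at P21, 2.59 and 1.35 in adult mice and 11.5 and 8.57 in aged mice. Fosb stood at 5.88 and 4.95 CPM at P21, 9.10 and 8.65 in adult mice and 29.1 and 27.9 in aged mice.

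The other genes differed less. Junb stood at 28.0 and 29.8 CPM at P21, 56.1 and 41.8 in adult mice and 78.8 and 72.1 in aged mice, a stepwise order with no overlap between ages. Nr4a1 stood at 38.6 and 35.4 CPM at P21, 63.9 and 45.6 in adult mice and 111 and 104 in aged mice. Dusp1 stood at 16.6 and 17.4 CPM at P21, 31.9 and 23.2 in adult mice and 51.0 and 56.2 in aged mice. Both genes thus had the same order of ages as Junb, without overlap. The adult and aged sections nearest each other lay closest for Npas4, at 5.93 and 5.16 CPM at P21, 9.12 and 4.80 in adult mice and 10.1 and 11.5 in aged mice, and for Ier2, at 10.4 and 9.71 CPM at P21, 12.7 and 8.65 in adult mice and 14.1 and 13.6 in aged mice. For these 2 genes, as for Fos and Egr2, the P21 and adult sections overlapped. In the other 6 genes both P21 sections lay below both adult sections, as did 36.1% of all genes.

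**Figure D1:**
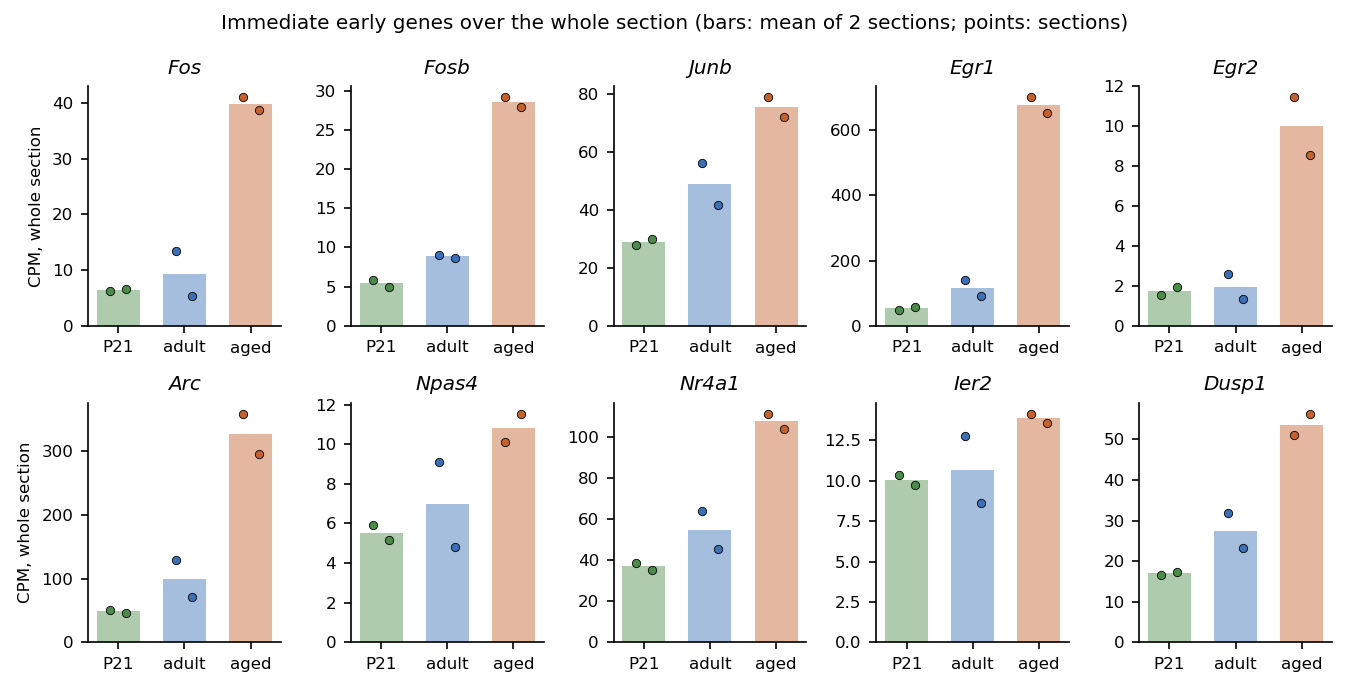
Level of each gene over the whole section in CPM (vertical axis, linear, starting at 0) by age. Bars are the mean of 2 sections and points the sections, and in all 10 genes both aged points lie above both adult points.

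The 2 adult sections did not match. All 10 genes were higher in adult section 1 than in adult section 2, by 1.05 to 2.52 times, whereas 56.1% of all genes were higher there. The ratio of all genes had a median of 1.01, and its 5th to 95th percentile spanned 0.849 to 1.33. In zones the same order held in 108 of 120 gene and zone pairs, all from the same 2 sections. The share of all genes with this order in zones was not counted. The adult sections are the reference of both comparisons below, so P21 vs. adult and aged vs. adult share them.

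In aged vs. adult mice, 72 of the 116 gene and zone pairs that could be tested were called higher and 1 was called lower, against 7.75% of all tested pairs called higher and 5.65% called lower. Calls were most frequent in the cortex, where 34 of 40 pairs were higher, followed by the hippocampal zones with 22 of 37 and the other zones with 16 of 39. The median log2 fold change of the pairs was 1.46 in the cortical zones, 1.01 in the hippocampal zones and 0.49 in the others, beside medians of all genes of 0.00, 0.00 and 0.01. Egr2 had too few UMIs for a test in CA3, DG, the hippocampal matrix and the thalamus.

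In the upper layers 9 genes were higher in aged mice (all but Npas4), against 7.58% of all genes tested there. All 10 were higher in the middle cortical zone, against 6.36%, and in the piriform cortex, against 8.13%. In the deep layers 5 were higher (Fos, Fosb, Egr1, Egr2 and Arc), against 7.07%. CA1 had 7 higher genes against 4.04% of all genes, and CA3 also had 7, against 4.13%. DG had 4 (Fos, Fosb, Egr1 and Arc) against 3.94%, and the hippocampal matrix had the same 4 against 8.66%. The striatum had 6 against 8.15%, and the fiber tracts had 4 (Fos, Egr1, Egr2 and Nr4a1) against 18.1%. In the thalamus Fos, Egr1 and Dusp1 were higher, against 7.26%, and in the hypothalamus Fos, Fosb and Egr1, against 6.97%. The gene called lower was Arc in the thalamus, where 7.65% of all genes were lower. By gene, Egr1 was higher in 12 of 12 zones, Fos in 11, Fosb in 10, Arc in 9, Egr2 in 7 of 8, Nr4a1 in 7, Dusp1 in 6, Junb in 4, and Ier2 and Npas4 in 3 each. Without adult section 2, the lower of the adult pair, the count of higher pairs was 55, and without adult section 1 it was 81.

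In P21 vs. adult mice, 30 of 116 pairs were called lower and 0 higher, against 1.92% of all tested pairs called lower and 3.51% called higher. Cortical zones held 17 of the 30. The upper layers had 6 lower genes (Fos, Junb, Egr1, Nr4a1, Arc and Dusp1) against 2.39% of all genes, the middle zone 3 against 1.5%, the deep layers 5 against 1.89% and the piriform cortex 3 against 1.32%. CA1 and CA3 had Egr1 alone, against 0.651% and 0.448%, and DG had Fosb alone, against 2.5%. The hippocampal matrix had 2 against 1.95%, the thalamus 3 against 2.84%, the hypothalamus 1 against 1.68%, the striatum 1 against 1.06% and the fiber tracts 3 against 4.11%. Egr1 was lower in 10 zones, Dusp1 in 6, Arc in 5, Junb in 4, Fosb and Nr4a1 in 2 each and Fos in 1, while Egr2, Npas4 and Ier2 were called in none. The median log2 fold change was -0.65 in the cortical zones, -0.34 in the hippocampal zones and -0.44 in the others. This comparison rested on single sections more than the aged one did. The count of lower pairs was 13 without adult section 1, 46 without adult section 2 and 16 without P21 section 1. By gene, Arc in the upper, middle and deep cortical zones, Egr1 in the deep layers, piriform cortex, thalamus and fiber tracts, and Junb in the upper and deep layers were called under every alternative run.

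**Figure D2:**
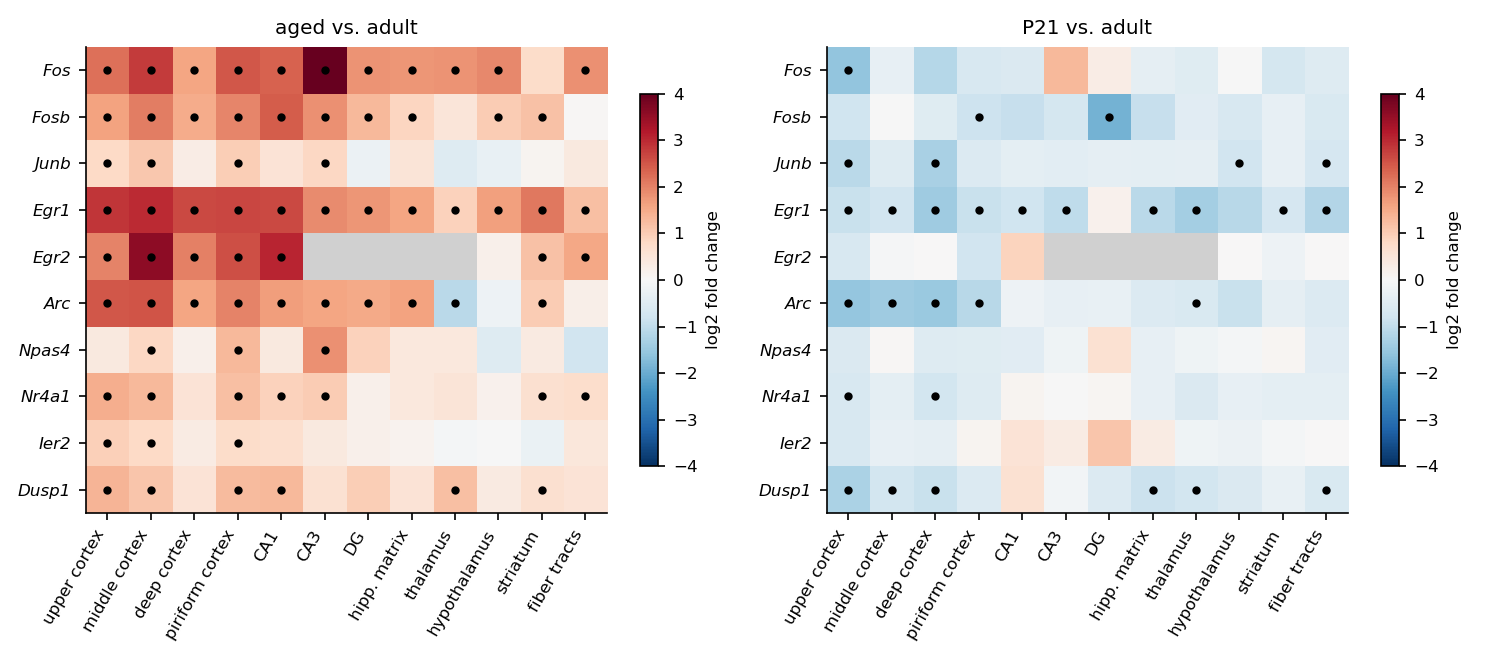
Log2 fold change of each gene (rows) in each zone (columns) for aged vs. adult mice and P21 vs. adult mice, from edgeR's fits of 6 sections. Dots mark called pairs and grey cells were not tested. Red (higher) fills the cortical columns in aged mice, and the only dotted blue cell there is Arc in the thalamus.

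Fos (chr12:85473890-85477273, plus strand, GRCm38) encodes a subunit of the transcription factor AP1. In adult mice its level hardly separated zones, from 12.9 ± 11.1 CPM in the deep layers to 2.05 ± 1.94 in CA3 (mean ± SD, n = 2 sections), and none of 11 neighbouring zones in that order were apart. In aged mice the middle zone led with 64.8 and 64.8 CPM, against 12.5 and 5.89 in adult mice. The upper layers had 67.2 and 55.0 CPM in aged mice, 18.5 and 6.62 in adult mice and 4.44 and 4.48 at P21, with no overlap between the ages. The log2 fold change there was 2.20 (SE 0.22, adjusted p = 2.34e-07) for aged and -1.57 (SE 0.36, adjusted p = 0.00456) for P21 mice, the only zone in which Fos was called lower at P21.

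CA3 gave the largest Fos change, from 3.41 and 0.678 CPM in adult mice to 35.05 and 26.7 in aged mice, with a log2 fold change of 3.97 (SE 0.44, adjusted p = 1.16e-08). It rests on 5 UMIs in the adult sections against 220 in the aged sections, a ratio of CPM of 16.4 with a 95% exact interval of 6.92 to 51.0 that covers counting error only. Fos was also called higher in 3 of the 4 zones outside the cortex and hippocampus. In the thalamus it went from 14.3 and 7.25 CPM to 32.9 and 39.0 (log2 fold change 1.79), in the hypothalamus from 9.89 and 4.96 to 25.7 and 32.0 (1.93) and in the fiber tracts from 10.1 and 5.14 to 29.8 and 23.4 (1.83). In the striatum adult and aged sections overlapped, at 16.4 and 6.10 and 15.9 and 22.5 CPM (adjusted p = 0.0625).

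Fosb (chr7:19302696-19310051, minus strand) encodes another AP1 subunit, with a stable splice form that builds up under repeated activity. In its order of zones 2 of 11 neighbours were apart in adult mice and 3 in aged mice. The piriform cortex led in aged mice with 59.1 and 57.5 CPM, against 19.2 and 11.7 in adult mice and 9.45 and 7.94 at P21, and it lay apart from the next zone. The log2 fold change there was 1.94 (SE 0.15, adjusted p = 2.95e-13) for aged and -0.82 (SE 0.22, adjusted p = 0.0108) for P21 mice. In the striatum, which led at P21 and in adult mice, Fosb went from 17.9 and 14.2 CPM in adult to 33.5 and 39.2 in aged mice (1.17). In CA1 it went from 6.32 and 4.97 CPM to 21.9 and 36.3 (2.41), on 11 and 86 UMIs. The fiber tracts, at 6.29 and 6.68 and 5.91 and 7.23 CPM, and the thalamus, at 4.43 and 3.28 and 4.19 and 6.43, overlapped between adult and aged mice. In DG Fosb was lower at P21, with 2.88 and 3.83 CPM against 17.0 and 7.27 (-1.88, SE 0.58, adjusted p = 0.0468). That call rests on 4 and 3 UMIs at P21 against 25 and 12 in adult mice.

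Junb (chr8:84974484-84978718, minus strand) encodes an AP1 subunit of the Jun side, the partner of Fos proteins. It was highest in CA1 at each age, with 91.2 ± 5.72 CPM at P21, 119.5 ± 17.2 in adult and 176 ± 7.87 in aged mice, and lowest in the thalamus at each age. At P21, 9 of 11 neighbouring zones were apart, the most of any gene. In aged mice it was called higher in 3 cortical zones and in CA3. The middle zone went from 54.9 and 42.7 to 105 and 97.2 CPM (log2 fold change 1.07), the piriform cortex from 69.8 and 54.2 to 127 and 113 (0.98) and the upper layers from 78.6 and 54.7 to 137 and 101 (0.81). CA3 went from 61.5 and 44.0 to 97.1 and 87.5 CPM (0.81, SE 0.16, adjusted p = 0.000446). In the deep layers aged mice had 91.4 and 89.2 CPM and adult mice 87.0 and 58.0, a log2 fold change of 0.30 (SE 0.13, adjusted p = 0.0739) that was not called. The P21 sections there had 29.0 and 29.6 CPM, which was the largest P21 difference of Junb, at -1.29 (SE 0.15, adjusted p = 3.61e-06). In the thalamus Junb stood at 24.4 and 19.5 CPM in adult and 14.4 and 15.8 in aged mice, below the adult range, and its log2 fold change of -0.51 (SE 0.15, adjusted p = 0.0283) was under the fold threshold.

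Egr1 encodes a zinc finger transcription factor with a large set of target genes at synapses. It was the one gene called higher in aged mice in all zones. In the upper layers it stood at 101 and 109 CPM at P21, 237 and 152 in adult mice and 1552 and 1287 in aged mice, and no ages overlapped. The log2 fold change was 2.86 (SE 0.14, adjusted p = 8.25e-13) for aged and -0.91 (SE 0.15, adjusted p = 0.000191) for P21 mice. CA1 stood highest at each age, with 119.7 and 167 CPM at P21, 279 and 209.7 in adult mice and 1326 and 1739 in aged mice, though in adult and aged mice it overlapped with the next zone in the order. Its log2 fold change was 2.65 (SE 0.15, adjusted p = 7.07e-13) for aged and -0.80 (SE 0.18, adjusted p = 0.00914) for P21 mice.

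The size of the Egr1 change varied by zone. It was largest in the middle zone, from 178 and 122 to 1269 and 1064 CPM (2.98), and smallest in the thalamus, from 101 and 64.7 to 142 and 165 (0.92). The deep layers went from 267 and 155 to 1362 and 1278 CPM (2.64), and the striatum from 187 and 135 to 641 and 759 (2.11). DG had the lowest adult level, 53.6 and 37.0 CPM, and aged sections unlike each other, at 212 and 111, with a log2 fold change of 1.77 (SE 0.26, adjusted p = 0.000357). DG was also the zone in which Egr1 overlapped between P21, at 44.0 and 63.9 CPM, and adult mice. The largest P21 difference was in the deep layers, with 76.7 and 79.8 CPM at P21 (-1.42, SE 0.16, adjusted p = 1.19e-06).

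**Figure D3:**
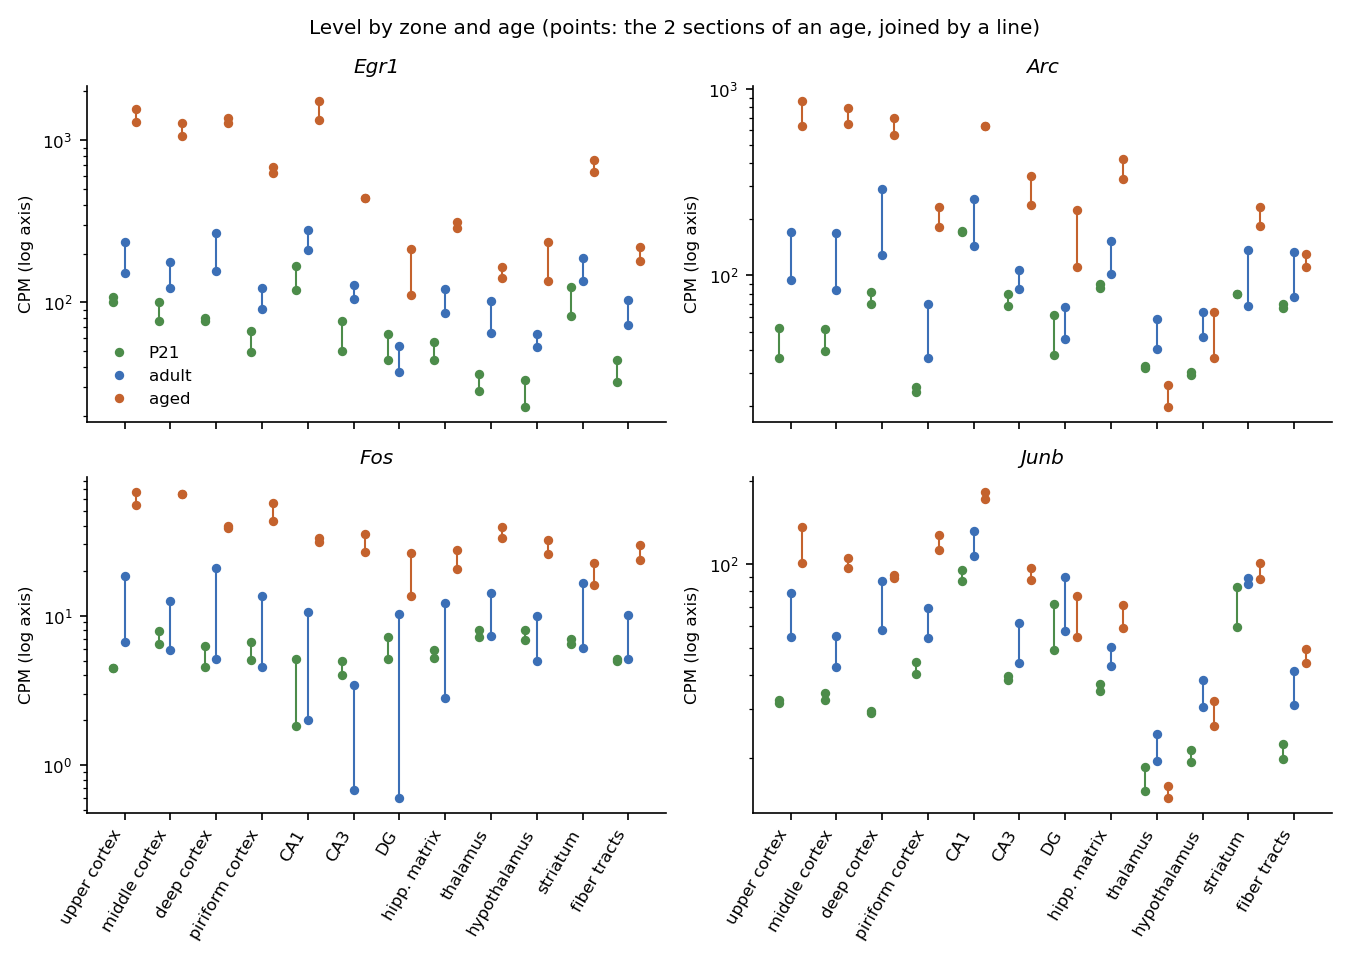
Level of Egr1, Arc, Fos and Junb in CPM (vertical axes, logarithmic) in 12 zones (horizontal axis). Points are the 2 sections of an age, joined by a line, and the aged points of Egr1 lie above the adult points in every zone, while those of Arc lie below them in the thalamus.

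Egr2 (chr10:67535475-67542188, plus strand), a zinc finger factor of the same family that also drives myelination in peripheral nerve, had the fewest UMIs of the 10 genes. In adult mice the striatum had its highest mean, 5.18 ± 3.30 CPM. In aged mice the piriform cortex led with 25.6 and 22.04 CPM, against 4.55 and 3.47 in adult mice (log2 fold change 2.59, SE 0.23, adjusted p = 1.17e-11). The middle zone went from 1.95 and 0.491 to 19.7 and 11.4 CPM (3.57, SE 0.43, adjusted p = 2.99e-05), and the upper layers from 5.75 and 3.31 to 25.01 and 12.9 (1.97, SE 0.34, adjusted p = 0.000162). CA1 held 3 UMIs in adult and 37 in aged mice, a ratio of 8.71 with an exact 95% interval of 2.76 to 44.2 for counting error only. In CA3, where it was not tested, 1 adult UMI and 38 aged UMIs gave a ratio of 14.2, with an interval of 2.39 to 574. At P21 no zone was called, and adult and P21 sections overlapped in all zones but the piriform cortex, at 1.81 and 3.07 CPM, and the thalamus.

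Npas4 (chr19:4984355-4990316, minus strand) encodes a transcription factor of neurons that responds to calcium entry and acts on inhibitory synapses. It was called higher in 3 zones. In CA3 it went from 7.68 and 6.10 to 21.0 and 28.1 CPM, with a log2 fold change of 1.83 (SE 0.33, adjusted p = 0.000146), and in the piriform cortex from 11.6 and 4.55 to 21.5 and 18.0 (1.31, SE 0.23, adjusted p = 2.49e-05). In the middle zone adult sections at 11.1 and 4.67 CPM and aged sections at 10.9 and 17.4 overlapped, and the call there, 0.83 (SE 0.29, adjusted p = 0.0449), was lost in most alternatives. The other zones gave no call. In the fiber tracts aged sections lay below adult ones, at 2.96 and 3.62 against 7.004 and 4.45 CPM, with a log2 fold change of -0.76 (SE 0.33, adjusted p = 0.0622). In the upper layers the adult sections, at 12.9 and 5.30 CPM, overlapped with those of both other ages. At P21 Npas4 was at 6.02 and 7.09 CPM in those layers, and its log2 fold changes ranged from -0.58 there to 0.62 in DG.

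Nr4a1 (chr15:101254269-101274795, plus strand) encodes an orphan nuclear receptor. CA1 led at every age and lay apart from the next zone each time, with 149.6 and 147 CPM at P21, 169 and 110.3 in adult mice and 249.6 and 270.2 in aged mice. The aged sections of CA1 lay above the adult ones (log2 fold change 0.91, SE 0.15, adjusted p = 0.000224), while the P21 sections lay within the adult range. The upper layers showed the largest change, with 237 and 184 CPM in aged mice, 87.5 and 64.3 in adult mice and 47.7 and 50.3 at P21 (1.46 and -0.65). In the deep layers, at 131 and 129, 103 and 72.0 and 54.6 and 48.5 CPM in the same order, the aged change of 0.56 (SE 0.12, adjusted p = 0.00113) was under the fold threshold and the P21 change of -0.72 (SE 0.14, adjusted p = 0.00102) was not. The thalamus had unlike aged sections, 32.5 and 61.7 CPM, the lower of which lay within the range of the adult values of 38.6 and 29.1 and the higher above it.

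Arc (chr15:74669083-74672570, minus strand) encodes a protein of dendrites that helps remove AMPA receptors from synapses and forms capsids like those of viruses. In aged mice it was highest in the upper layers, with 52.3 and 36.2 CPM at P21, 170.2 and 95.1 in adult mice and 859.5 and 631 in aged mice and no overlap between ages. The log2 fold change was 2.47 (SE 0.18, adjusted p = 1.19e-09) for aged and -1.54 (SE 0.21, adjusted p = 1.74e-05) for P21 mice. The middle zone was close behind, from 168 and 84.0 to 792 and 650.4 CPM (2.53). In CA1 aged sections had 631 and 637 CPM, adult sections 258 and 144 and P21 sections 172 and 172, so P21 lay within the adult range.

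Arc was the one gene called higher in some zones and lower in another of aged mice, while Junb, described above, also had a negative value in the thalamus that was under the fold threshold. In that zone Arc went from 58.5 and 40.5 CPM in adult mice down to 26.0 and 19.7 in aged mice, a log2 fold change of -1.08 (SE 0.18, adjusted p = 0.00128), and it was called lower under every alternative run. P21 sections there, at 31.9 and 32.6 CPM, lay between the adult and the aged ones. In the hypothalamus adult and aged sections overlapped, at 63.7 and 46.5 and 63.8 and 36.2 CPM, and so they did in the fiber tracts, at 134 and 76.5 and 111 and 130.0. The hippocampal matrix, which surrounds the cell layers of the fields, went from 153 and 101 to 419 and 330.3 CPM (1.61, SE 0.14, adjusted p = 3.55e-09). No alternative run varied the slide or the probes, which go with age. In the thalamus 5 choroid plexus markers summed to 610 to 927 CPM in adult and 43.0 to 69.4 in aged mice. The 3 inhibitory neuron markers there went from 146 to 147 down to 76.3 to 78.4 CPM. The 5 microglia markers went the other way, from 257 to 275 up to 324 to 363 CPM. Their part in the Arc level of the thalamus was not tested.

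Ier2 (chr8:84661331-84662852, minus strand), which encodes a small nuclear protein, was called in 3 zones, all of them cortical. It was higher in aged mice in the upper layers, from 13.9 and 11.6 to 25.5 and 24.0 CPM (0.94, SE 0.18, adjusted p = 0.000586), in the middle zone, from 16.7 and 8.60 to 23.3 and 21.1 (0.79, SE 0.22, adjusted p = 0.0139), and in the piriform cortex, from 6.21 and 5.64 to 8.69 and 10.6 (0.74, SE 0.23, adjusted p = 0.0127). The thalamus, which led the zones at P21 and in adult mice, gave 16.3 and 15.6 CPM at P21, 21.4 and 15.5 in adult and 16.9 and 17.0 in aged mice, so both other ages lay within the adult range.

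Dusp1 (chr17:26505590-26562128, minus strand) encodes a phosphatase that switches off the MAP kinases, and so acts as a brake on the signals that turn on the other genes. By mean it was the one gene that stood highest in the thalamus in both adult and aged mice. The thalamus had 20.6 and 24.6 CPM at P21, 40.1 and 35.04 in adult mice and 71.1 and 98.3 in aged mice. These sections overlapped with the deep layers in adult mice and with the upper layers in aged mice. Both changes were called in the thalamus, at 1.2 (SE 0.15, adjusted p = 0.000243) and -0.73 (SE 0.16, adjusted p = 0.0112), while Arc moved the other way in the same zone of aged mice. In the upper layers Dusp1 stood at 13.2 and 14.5 CPM at P21, 40.3 and 23.2 in adult mice and 83.7 and 82.6 in aged mice, without overlap (1.35 and -1.25). In DG it was low, at 8.82 and 7.27 CPM in adult and 22.3 and 12.5 in aged mice, and the log2 fold change of 0.99 (SE 0.39, adjusted p = 0.11) was not called.

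Zones were then compared over all ages, with each section as a block. Upper and deep cortical layers together were higher than the CA1, CA3 and DG fields for 5 of 10 genes, against 25% of all genes called in either direction. These were Dusp1, with a log2 difference of 1.21 (SE 0.10, adjusted p = 4.76e-16), Egr2 (1.17), Egr1 (0.85), Fos (0.81) and Ier2 (0.72). Junb had the opposite sign, at -0.41 (SE 0.06, adjusted p = 6.75e-09), under the fold threshold. The contrast averages CA1, CA3 and DG. By mean, Egr1 was higher in CA1 than in the upper or the deep layers at each age, with overlap in adult and aged mice. Dusp1 was higher by mean in CA1 than in either of these layers at P21, with overlap with the deep layers only. Against the thalamus 7 genes were higher in the cortical layers, beside 26.7% of all genes called, led by Egr2 (3.15) and Arc (2.49). Fos had a mean difference over the ages of 0.03 (SE 0.11, adjusted p = 0.842), but the order of the zones was not the same at each age. At P21 the thalamus, at 7.20 and 8.02 CPM, lay above the upper layers, at 4.44 and 4.48, and in aged mice, at 32.9 and 39.0, below them, at 67.2 and 55.0. Dusp1 (-0.30) and Ier2 (-0.36) had negative differences under the threshold. Against the hypothalamus 9 genes were higher, all but Fos, beside 27.4% of all genes, and the same 9 were higher than in the fiber tracts, beside 38.9%. Against the striatum Arc (0.71), Ier2 (0.98) and Dusp1 (0.64) were higher, beside 17.7%. Between upper and deep layers Egr2 alone was called, at 0.86 (SE 0.30, adjusted p = 0.0183), beside 11.2% of all genes. That call was lost without any of the P21 or adult sections. Arc had a negative difference under the fold threshold, at -0.35 (SE 0.10, adjusted p = 0.00399).

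Within the hippocampus CA1 was above DG for 5 genes, beside 21.7% of all genes called. These were Nr4a1 (2.95, SE 0.18, adjusted p = 1.18e-20), Egr1 (2.53), Arc (2.03), Dusp1 (1.44) and Junb (1.07). CA1 was above CA3 for 4 of them, Nr4a1 (1.56), Egr1 (1.25), Arc (1.01) and Junb (0.99), beside 14.3%. Fos and Fosb gave no call in either contrast, with log2 differences of 0.27 (SE 0.37, adjusted p = 0.591) and -0.27 (SE 0.47, adjusted p = 0.695) against DG.

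Whether the change with age itself differed between zones was tested in the same fit, in which the block takes up anything that acts alike on a gene in all zones of a section. An effect of the slide or the probes that differs between zones is not taken up. Between aged and adult mice such an effect cannot be told apart from a zone-by-age change. For aged vs. adult mice the test of all zone-by-age terms was passed by 10 of 10 genes, against 42.1% of all genes, with the smallest adjusted p for Arc (6.00e-18). For P21 vs. adult mice it was passed by Arc (0.000734) and Junb (0.00176), against 14.5%. In the narrower contrast of the cortical layers with the 3 hippocampal fields, the aged change of Egr1 was larger in the cortex by 0.66 (SE 0.17, adjusted p = 0.0122), against 4.26% of all genes. The P21 change was more negative in the cortex for Arc, by -1.16 (SE 0.21, adjusted p = 0.00072), and for Junb, by -0.75 (SE 0.15, adjusted p = 0.00167), against 2.19% of all genes. The other aged contrasts were not called, among them Arc at 0.49 (SE 0.17, adjusted p = 0.0861). These narrow contrasts hung on single sections. The P21 contrast was passed by 0 genes without adult section 1 or without either P21 section, by 6 without either aged section and by 2 without adult section 2, and the P21 test of all terms by 0 without adult section 1 or either P21 section. The aged contrast was passed by 0 genes without either adult section and by 2 without either aged section, and the aged test of all terms by 6 without adult section 1 and by 8 or more without any other section.

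So that shares of spots could be compared across depths, the share expected at 5000 UMIs per spot was computed. It is the mean over spots of the chance that at least 1 of 5000 UMIs drawn from a spot is of the gene. In the upper layers the expected share for Egr1 was 37.7% and 41.9% at P21, 64.6% and 48.3% in adult mice and 99.7% and 99.5% in aged mice. For Arc it was 23.2% and 16.1%, 54.4% and 35.8%, and 96.1% and 92.0%. For Fos it was 1.98% and 1.90%, 8.61% and 3.07%, and 26.8% and 22.3%. At full depth the observed Egr1 shares were 85.6% and 69.2% at P21, 94.2% and 76.4% in adult mice, and 100% and 99.2% in aged mice. In the thalamus the expected share of spots with Arc was 14.6% and 14.6% at P21, 24.7% and 17.7% in adult mice, and 12.3% and 9.77% in aged mice. The lower level there thus went with a lower expected share of spots holding Arc. Spots under 5000 UMIs were left out, 323 over the whole sections, with 107 at P21, 107 in adult and 109 in aged mice. In the upper layers this kept 242 of 243 spots in P21 section 1, 237 of 238 in aged section 1, 248 of 251 in aged section 2 and all spots in the other sections.

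Moran's I, a score of spatial clustering that the authors deposited for each gene and section, was read as a further description of the same sections. The score is 0 for a random pattern and nears 1 where neighbouring spots are alike. Arc scored 0.211 and 0.143 at P21, 0.315 and 0.181 in adult mice, and 0.759 and 0.764 in aged mice. Egr1 scored 0.207 and 0.111, 0.240 and 0.155, and 0.722 and 0.735. For all 10 genes both aged scores lay above both adult scores, and the share of all genes with this order was not counted. By percentile among the genes of a section, Ier2 stood at 78.6 and 63.6 in adult and 74.9 and 72.5 in aged sections, an overlap. For each of the other genes both aged percentiles lay above both adult ones, and the share of all genes with this order was not counted either. The 90th percentile of all genes was also higher in aged sections, at 0.223 and 0.253, than in adult sections, at 0.116 and 0.109. The median of the 10 genes was 0.274 and 0.287 in aged sections, against 0.0448 and 0.0419 in adult sections, whereas the median of all genes was 0.0226 and 0.0295 in aged and 0.0136 and 0.0127 in adult sections. The score moves with the number of UMIs per spot, and the part of level and depth in it was not tested.

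**Figure D4:**
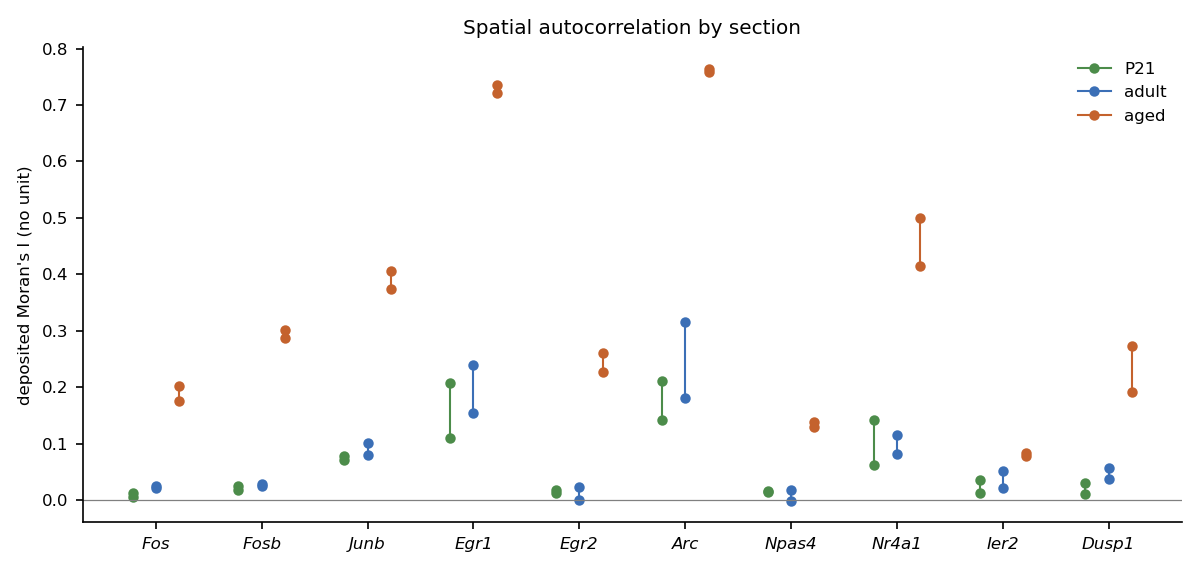
Deposited Moran's I (vertical axis, no unit) of each gene in the 2 sections of each age, joined by a line. In aged sections Arc and Egr1 lie between 0.722 and 0.764, and all aged scores lie above the adult scores of the same gene. The share of all genes with that order was not counted.

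Whether the genes were high in the same spots was examined in the upper, middle and deep cortical zones. Over the 45 gene pairs the median Pearson's r across spots was 0.00431 and 0.00695 at P21, 0.0409 and 0.0317 in adult mice, and 0.104 and 0.134 in aged mice. Egr1 and Arc had r values of 0.0545 and -0.000747, of 0.325 and 0.222, and of 0.499 and 0.396. Spots of a section share a library and differ in depth, and rarer genes give lower values, so these are descriptions of each section.

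The other genes of the pathway were taken from fixed lists. Of 25 other rapid genes, which include further Egr, Nr4a and AP1 members, 135 of 284 gene and zone pairs were higher and 8 lower in aged mice, or 47.5% and 2.82%, against the 7.75% and 5.65% of all pairs, with a median log2 fold change of 0.63. At P21 they had 6 higher and 11 lower pairs, or 2.11% and 3.87%, near the 3.51% and 1.92% of all pairs, and a median of -0.04, unlike the -0.48 of the 10 described genes over all zones. The rapid genes with the largest aged changes were Maff, a small bZIP factor (mean over zones 3.30, higher in 9 of 9 zones tested), Sik1, a kinase that holds back coactivators of CREB (1.69, 11 of 12 zones), and Atf3, a stress-induced factor (1.51, 3 of 7 zones). In the fiber tracts Maff stood at 1.80 and 1.37 CPM in adult and 26.8 and 23.4 in aged mice. In the piriform cortex Sik1 went from 13.5 and 8.24 to 42.1 and 40.1 CPM. Atf3 stood at 1.44 and 1.71 CPM in adult and 14.1 and 12.2 in aged fiber tracts. At P21 Btg2 and Csrnp1 were at the low end, with means of -0.51 (lower in 2 zones) and -0.46 (lower in 1 zone). Sik1 was at the high end at P21, with a mean of 0.54 (higher in 2 zones). The count of lower rapid pairs at P21 was 5 without adult section 1 and without either P21 section.

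Late activity genes, 11 that follow the first wave, were mixed in aged mice, with 23 pairs higher and 14 lower of 121, or 19.0% and 11.6%, against 7.75% and 5.65% of all pairs, and a median of 0.22. Nptx2, a secreted pentraxin of excitatory synapses, was lower in 7 zones of aged mice (mean -0.92) and higher in 9 zones at P21 (mean 1.32), opposite to Egr1 in both comparisons. In the deep layers Nptx2 stood at 57.5 and 54.3 CPM at P21, 24.99 and 17.1 in adult and 9.44 and 6.82 in aged mice. Ptgs2, the inducible cyclooxygenase, was lower in 5 zones at P21 (mean -0.78), among them DG, with 10.1 and 10.2 CPM at P21 against 36.0 and 47.9 in adult mice. Over all late genes 10 pairs were higher and 7 lower at P21, or 8.26% and 5.79%, against 3.51% and 1.92% of all pairs, and 6 were higher without P21 section 1.

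Of 13 regulators upstream of the genes, such as Srf, Creb1 and the Mef2 factors, 3 of 156 pairs were higher and 10 lower in aged mice. These are 1.92% and 6.41%, against 7.75% and 5.65% of all pairs. At P21 the counts were 2 and 0, or 1.28% and 0%, against 3.51% and 1.92%. The 6.41% of lower pairs in aged mice is near the 5.65% of all pairs. Mef2c (mean -0.69, lower in 5 zones) and Camk4 (mean -0.53, lower in 3 zones) had the lowest means in aged mice. In the fiber tracts 1707 of the 13693 genes tested were called lower in aged mice. Mef2c stood there at 254 and 230.2 CPM in adult and 80.5 and 87.0 in aged mice, and Camk4 at 168 and 146 against 40.0 and 42.2. Camk4 was higher at P21 in DG, at 143 and 155 CPM against 54.3 and 54.5. Heat shock genes, 5 of 6 listed, were higher in 31 of 57 pairs in aged mice, or 54.4% against 7.75% of all pairs, with a median of 1.01, close to that of the 10 genes (1.01), and lower in 3 pairs at P21, or 5.26% against 1.92%. Their summed level over the section was 484 to 493 CPM at P21, 526 to 544 in adult mice and 452 to 685 in aged mice. The heat shock count was 19 without aged section 1 and 19 without adult section 1.

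**Figure D5:**
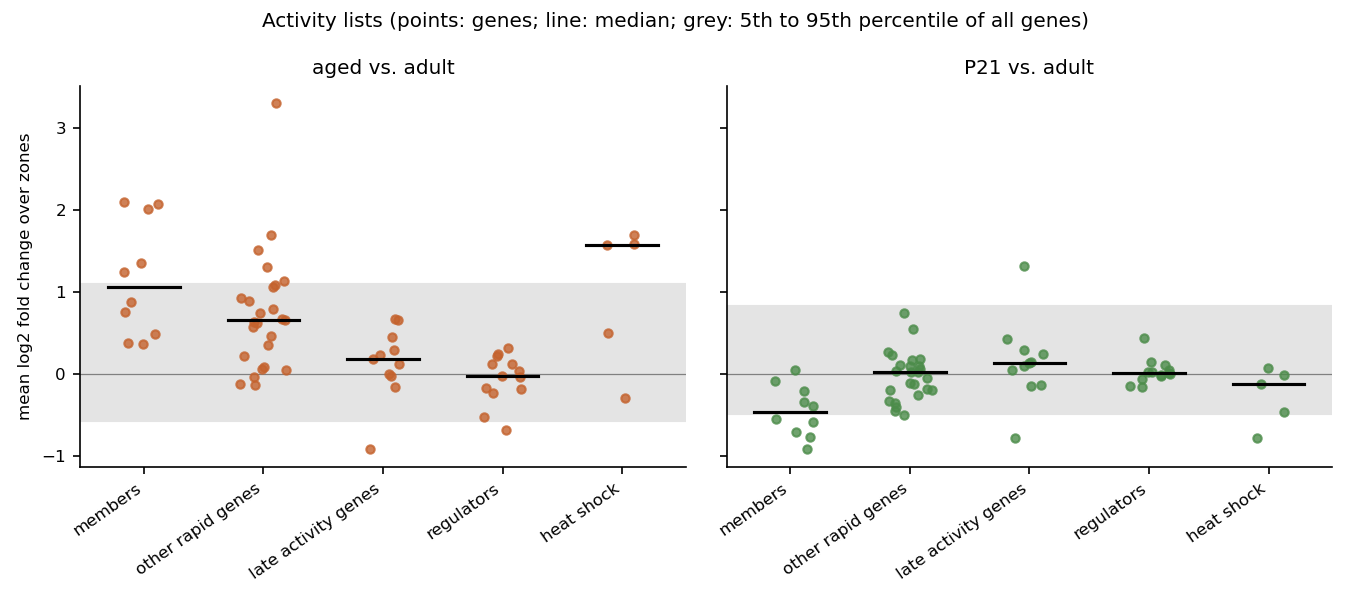
Mean log2 fold change over zones of each gene (points) in the 5 activity lists, for aged vs. adult and P21 vs. adult mice. Lines are list medians and the grey band spans the 5th to 95th percentile of all genes. In aged mice the 10 described genes and most rapid and heat shock genes lie above 0, and at P21 the 10 genes lie mostly below it.

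The genes whose profile over the 72 zone sums was most like the mean of the 10 were sought among 13537 genes by Pearson's r. They were Ubqln4 (0.841), Pcmtd1 (0.822), Ankrd12 (0.806), Per1 (0.798) and Akirin2 (0.791), the points sharing sections and depth. Ubqln4 stood at 80.7 and 76.2 CPM at P21, 109 and 96.3 in adult and 212 and 207 in aged sections, and Akirin2 at 99.8 and 100.6, 110.3 and 113, and 255 and 239. Both were higher in 12 of 12 zones of aged mice and were called in no zone at P21. Per1, also one of the rapid genes, was higher in 7 zones of aged mice and lower in 1 zone at P21.

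Summed marker lists moved with age beside these results, and their part in them was not tested. In the upper layers the 5 pan-neuronal markers summed to 5868 to 5940 CPM at P21, 7695 to 8312 in adult and 7165 to 8028 in aged mice. The 6 oligodendrocyte markers there summed to 7819 to 8240 CPM at P21, 2693 to 3141 in adult and 1578 to 1847 in aged mice. The 5 choroid plexus markers, which should be absent from cortex, summed there to 502 to 658, 273 to 416 and 15.8 to 16.2 CPM, and the 4 erythrocyte markers to 1208 to 2101, 200.1 to 200.4 and 139 to 303. Over the section the 3 inhibitory neuron markers were at 331 to 335, 334 to 335 and 489 to 511 CPM, and the 5 microglia markers at 280.3 to 303, 303 to 310.2 and 353 to 375. The 5 astrocyte markers were at 3264 to 3271, 3030 to 3140 and 3108 to 3364, the 5 endothelial markers at 245 to 263, 194 to 206 and 174 to 188, and the 5 meningeal markers at 89.0 to 90.0, 39.8 to 52.9 and 21.9 to 22.5. No marker of these lists was at 0 in the upper layers, apart from 1 section in which at least 1 erythrocyte gene was.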

How the data were processed

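The deposited matrices hold raw counts, the UMIs of each gene in each spot, for which the authors ran Space Ranger on probe panels of 10x Genomics with mm10 as the genome. The submitters' notes name Space Ranger 2.1.0 and Seurat 5.1.0, and the file headers name Space Ranger 2.0.0 (P21 and adult) and 3.1.1 (aged). The deposited score per gene and section is Moran's I, and its p-values were not used. Image files were not analysed here. In the P21 and adult files 2612 to 2997 spot barcodes recur between any 2 sections, and 3364 between the aged sections, since barcodes belong to the array.

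Spots with fewer than 250 genes or 500 UMIs (12 spots) were removed. Total UMIs per section were 42422997 to 106783660. Spots were clustered with 3000 variable genes, 10 principal components, 20 neighbours and Leiden resolution 0.2 (Python 3.11.15, leidenalg 0.10.2), and cortical, hippocampal and fiber tract clusters again at 0.1. Clusters were named from marker panels, with a minimum score of 0.2 and a lead of 0.2. The cortical cluster that met no panel was kept as the middle zone. Spots of the reticular thalamus, the choroid plexus and the meninges and vessels, 7.85% of all, entered no comparison. The spots' best panel gave the same zone for 73.5% of spots.

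UMIs were summed per section and zone, and sections are the replicates. edgeR 4.0.16 in R 4.3.3 fitted the 6 sums of each zone by age, with no other term (TMM factors, filterByExpr, glmQLFit, glmQLFTest). A second fit of all zone sums held the section as a block and tested zones and zone-by-age terms, the latter at an adjusted p under 0.05 alone. In that fit the zones of a section count as independent, though they share an animal. Adjusted p are Benjamini-Hochberg values over all genes. SE are those of log2 fold changes. Exact intervals of ratios are at 95% and cover counting error only. Plain CPM moved the median of all genes by at most 0.07 on the log2 scale. Likeness used log2 CPM with a pseudocount of 1.

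Replicate numbers were checked as pairs over 18104 genes. The differences of replicates 1 and 2 correlated between ages at 0.021, -0.044 and -0.175, so the numbers were not taken as pairs. Alternatives were plain CPM, DESeq2 1.42.0, no filter, the study's detection filter, zones by panel score, interior spots, thinned sums, the replicate block and leaving out each section. The scripts were tested on simulated data. All 10 genes are shown in every zone in which they were tested, and the text gives values for part of these zones. Also named are the 3 genes of largest and smallest mean change of the other lists among those called, and the 5 genes of most like pattern. Marker lists are given as sums. The genes and lists were chosen with earlier results of these data known. Listed genes not analysed here are Rps6ka5, Hspa8 and Ly6c1.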

Additional observations from a re-analysis of the deposited data

Results flagged for a closer look

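The change with age differed between zones by a test of the difference itself, edgeR's quasi-likelihood F-test of all zone-by-age terms with the section as a block and Benjamini-Hochberg adjustment over all genes. Effects of the slide or the probes that differ between zones cannot be told apart from these terms in aged vs. adult mice. In aged vs. adult mice the adjusted p was 6.00e-18 for Arc, 3.90e-12 for Egr1, 1.15e-11 for Junb, 0.000115 for Fos, 0.000126 for Npas4, 0.000182 for Dusp1, 0.000462 for Nr4a1, 0.00173 for Fosb, 0.0191 for Ier2 and 0.0238 for Egr2. In P21 vs. adult mice it was 0.000734 for Arc and 0.00176 for Junb.

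In the contrast of the upper and deep cortical layers with CA1, CA3 and DG, the change in P21 vs. adult mice differed for Arc (adjusted p = 0.000720) and Junb (adjusted p = 0.00167), and the change in aged vs. adult mice for Egr1 (adjusted p = 0.0122). Each of these 3 genes passed the wider test of the same comparison.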

How the results depend on the processing

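The 72 higher pairs in aged vs. adult mice ranged over 49 to 81 in the other settings. The count was 70 with plain CPM, 72 with no filter, 65 with the study's detection filter, 73 with zones by panel score, 63 with thinned sums, 51 with DESeq2, 49 with interior spots, where CA1, CA3 and DG could not be fitted, and 55 to 81 without 1 section (55 without adult section 2). The 30 lower pairs in P21 vs. adult mice became 23 with DESeq2 and 20 with interior spots, and 13 to 46 without 1 section. They numbered 13 without adult section 1, 16 without P21 section 1 and 46 without adult section 2. Of the called pairs, 50 of 73 in aged mice and 9 of 30 at P21 were called under every alternative in which they were tested, and none reversed.

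With the replicate number as a block, 70 aged pairs and 32 P21 pairs were called, beside 72 and 30 without the block. With the numbers of the aged sections crossed, a pairing chosen after seeing the data, 73 aged pairs were called.

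With zones by panel score the contrast of cortical layers and hippocampal fields was passed by 1 gene at P21 and 2 in aged mice, and the P21 test of all zone-by-age terms by 1. Without 1 section the P21 contrast was passed by 0 to 6 genes, the aged contrast by 0 to 2, the P21 test of all terms by 0 to 6, the aged test of all terms by 6 to 10 and upper vs. deep layers by 0 to 1. Interior spots could not be fitted for contrasts between zones. Lower rapid pairs at P21 were 5 with interior spots, 3 with DESeq2 and 5 to 14 without 1 section. Higher late pairs at P21 were 4 with interior spots, 5 with DESeq2 and 6 to 12 without 1 section. Higher heat shock pairs in aged mice were 19 to 41 without 1 section (19 without aged section 1 or adult section 1). With zone means subtracted, 2 of the 5 genes of most like pattern remained. With equal weight to each zone, 16 of 30 whole-section levels moved by more than the spread of their sections, and both counts of genes outside the adult range (10 and 6) were the same. The cause of these shifts was not tested. Depth limits Egr2 in CA1, CA3, DG, the hippocampal matrix and the thalamus, Fos in adult CA3 and adult DG, and Fosb in DG at P21.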

Other observations

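Spots of 3 small zones entered no comparison, and their levels are given as values. In spots led by markers of meninges and vessels, which border the outer cortex, Egr1 stood at 39.7 and 51.2 CPM at P21, 89.8 and 65.4 in adult mice and 654 and 431 in aged mice, and Arc at 33.9 and 33.0 CPM at P21, 88.9 and 61.5 in adult mice and 299 and 232 in aged mice. In the reticular thalamus Egr1 stood at 26.3 and 42.7 CPM at P21, 86.7 and 58.8 in adult mice and 39.0 and 49.2 in aged mice, so the aged sections lay below the adult ones there. Junb stood in the same spots at 17.6 and 14.8 CPM at P21, 38.1 and 23.8 in adult mice and 15.9 and 20.2 in aged mice and Dusp1 at 15.4 and 21.4 CPM at P21, 31.0 and 29.4 in adult mice and 59.97 and 60.02 in aged mice. Aged sections thus lay below the adult ones for Junb and above them for Dusp1. Npas4 was at 3.84 and 3.28 CPM at P21, 15.0 and 5.56 in adult mice and 3.08 and 1.45 in aged mice. In choroid plexus spots Egr1 was at 27.6 and 36.6 CPM at P21, 113 and 58.3 in adult mice and 129 and 147 in aged mice. These spots number 1068, 331 and 198 and can hold parts of the zones beside them.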
